A study of Homo sapiens with 24 samples.

Results

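The genes described here are 10 cytokines and chemokines of the secretory phenotype of stressed and senescent cells: IL6, IL8 (the older symbol of CXCL8), IL1A, IL1B, CXCL1, CXCL2, CXCL3, CCL2, LIF and CSF2. They were taken by gene name from the gene spots of a whole-genome Agilent array. The rule names the genes and uses no measured value, but the list was drawn up with earlier results of these data known. They have 13 of the 41000 probes and 49 of the 43376 gene spots, out of 30982 gene names. A total of 12 of these probes passed the filter on dim probes and every gene has a tested probe. The second LIF probe, A_24_P233488, was not well above background on any array and was not tested.

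Cells with persistent DNA damage can release a mixture of cytokines, chemokines, growth factors and proteases. Interleukin-1 alpha and beta act near the top of this response, and through their receptor they activate NF-kB. NF-kB, together with C/EBP and AP-1 factors, switches on IL6, IL8 and the CXC chemokines, which recruit neutrophils, while CCL2 recruits monocytes. In glioblastoma, IL6 and LIF signal through the shared receptor chain IL6ST to STAT3.

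The samples were U87 MG cells, a human glioblastoma line, irradiated with protons (PT) at 2 Gy or 10 Gy, with or without 10 µM Si306, an inhibitor of Src family kinases. There were 4 array configurations. In U87 2 Gy and in U87 10 Gy, PT alone was set against cells left untreated. In U87 Si306 + 2 Gy, and likewise in U87 Si306 + 10 Gy, the combination was set against PT alone of the same dose. Cells were harvested at 24 h. The treated RNA was always in Cy5, its control always in Cy3, and dyes were not swapped, so a bias of a probe toward a dye cannot be told apart from a treatment effect within a configuration.

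The labels list 6 replicates per configuration, but the array headers show that the 24 samples are 3 scans of each of 8 arrays, 2 per configuration. By its header, replicate 5 of U87 2 Gy is a scan of a 10 Gy array, and replicate 2 of U87 10 Gy a scan of a 2 Gy array. Both were left out, and the scans of an array were averaged, so n is 2 arrays for each ratio. No source says that the arrays of a configuration came from separate cultures, so p-values measure only the spread between arrays, which may be technical. In each scan 57.3% to 66.5% of gene spots were well above background in Cy3 and 63.4% to 74.7% in Cy5. The glial line markers VIM, NES, CD44 and GFAP were well above background in both dyes on all 8 arrays, while CHI3L1 and OLIG2 were so in either dye only on the 4 arrays of slide 1. Of the leukocyte markers, PTPRC and AIF1 were on no array and CD14, CD68 and CSF1R on all 8, and of the endothelial markers PECAM1 and CDH5 were each on 1 slide alone. The summed Cy5 level of the 8 leukocyte markers was 2885 and 7646 on the U87 2 Gy arrays and 8000 and 8062 on the U87 10 Gy arrays. In Cy3 it was 2264 and 5622, and 5826 and 5973. A spot left out as an outlier lowers such a sum. On slide 2 the Cy5 sum ran from 1918 to 2231. That of the 4 endothelial markers ran from 324 to 327 on slide 1 and from 940 to 974 on slide 2. The part of either in the results was not tested. A lower level of a gene in bulk RNA can come from fewer expressing cells or from less RNA per cell, which cannot be told apart here.

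The 2 slides stood apart. Slide 1 holds the PT alone configurations and slide 2 the Si306 configurations, and RNA labelled PT alone was hybridized on both, in Cy5 on slide 1 and in Cy3 on slide 2. Over the 30260 tested probes the log2 level of this RNA differed between the slides with an SD of 1.18 at 2 Gy and 1.18 at 10 Gy, and 26.6% and 26.8% of probes differed by 2-fold or more. Between the dyes of the U87 2 Gy arrays the SD was 0.27, and between the doses on slide 2, in Cy3, it was 0.12.

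The cytokine genes were among the probes with large gaps. IL6 in RNA of PT alone at 2 Gy was at a normalized log2 level of 11.89 on slide 1 and 7.80 on slide 2, which is 17.0-fold lower, and the gap at 10 Gy was 18.8-fold. The CXCL2 level was 22.8-fold lower on slide 2 at 2 Gy and 28.7-fold at 10 Gy. IL1B was 15.2-fold and 16.1-fold lower, the latter with the probe well above background on only 1 of the slide 2 arrays, CXCL3 8.16-fold and 8.22-fold, and IL8 2.77-fold and 2.56-fold. IL1A was at least 2.91-fold and CCL2 at least 4.16-fold lower at 2 Gy, since neither was well above background on slide 2. An "at least" fold here sets the mean of the bright group against the higher of the dim probe's own level and the dimmest level that counted as well above background on each array.

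CXCL1 and CSF2 differed the other way. CXCL1 was 12.1-fold higher on slide 2 at 2 Gy and 15.5-fold at 10 Gy, and CSF2 was 2.41-fold and 3.21-fold higher. LIF was close on both slides, 1.07-fold and 1.08-fold lower on slide 2. The scanner's background-subtracted Cy3 signal of IL6, before any normalization, had a median of 4362 over the 10 scans of slide 1 and 117 over the 12 scans of slide 2, while that of CXCL1 was 145 and 1999. Cy3 held untreated RNA on slide 1 and PT alone RNA on slide 2, so these are not the same RNA. In Cy3 alone the normalized log2 level of IL6 was 12.60 on the U87 2 Gy arrays and 7.80 on the U87 Si306 + 2 Gy arrays. The part of the dye in the gaps was not tested. Slide, culture and the RNA that Si306 was compared with cannot be told apart here. Each Si306 ratio below is therefore a change within slide 2, where most of these genes were dim.

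**Figure D1:**
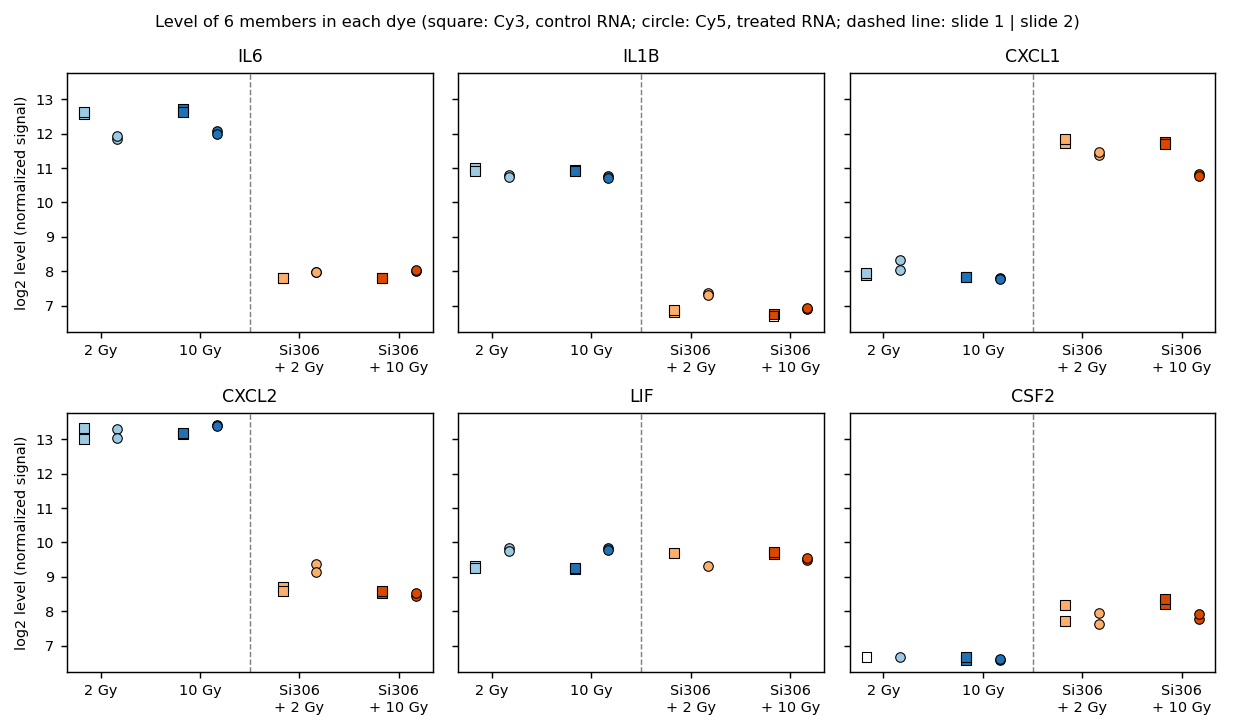
Normalized log2 level of 6 of the genes (vertical axis) in each dye of each array (horizontal axis: configuration; squares: control RNA in Cy3; circles: treated RNA in Cy5; open: not well above background; the dashed line parts slide 1 from slide 2). PT alone RNA is the circle on the left of the line and the square on the right, and IL6 lies at 11.89 and 7.80 for it at 2 Gy, CXCL1 at 8.18 and 11.78.

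The promoters are shown because the shared NF-kB-type motif is what many of these genes have in common beyond function. RefSeq promoter sequences (build GRCh38.p14, 250 bases before to 50 after the start) were found for 8 of the 10 genes. The motif GGANTTTCC, searched on both strands, was in 5 of the 8, against 1.64% of all 35116 promoters of that length (577 promoters). The 100 bases from 110 to 11 before the start are printed 5′ to 3′ on the gene's strand with the motif in capitals.
IL6 (chr7:22727090-22727189, plus strand): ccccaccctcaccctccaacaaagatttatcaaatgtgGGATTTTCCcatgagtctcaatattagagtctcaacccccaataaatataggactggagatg
IL8 (CXCL8, chr4:73740459-73740558, plus strand): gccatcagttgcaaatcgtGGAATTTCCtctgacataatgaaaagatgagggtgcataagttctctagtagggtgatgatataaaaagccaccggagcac
CXCL1 (chr4:73869283-73869382, plus strand): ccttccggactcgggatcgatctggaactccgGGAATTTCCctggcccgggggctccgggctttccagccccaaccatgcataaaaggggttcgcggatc
CXCL2 (chr4:74099206-74099305, minus strand): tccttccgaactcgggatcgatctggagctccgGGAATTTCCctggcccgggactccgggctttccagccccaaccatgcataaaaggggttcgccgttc
CXCL3 (chr4:74038700-74038799, minus strand): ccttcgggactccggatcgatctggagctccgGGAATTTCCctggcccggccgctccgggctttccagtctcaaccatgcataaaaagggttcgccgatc

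The first base of the motif lies 72 bases before the start in IL6, 91 in IL8, 78 in CXCL1 and CXCL3, and 77 in CXCL2. The printed stretches of CXCL1 and CXCL3 are identical at 91 of 100 positions without gaps. The AP-1-type motif TGANTCA was in the promoters of IL8 and IL1A, 2 of the 8, against 7.71% of all promoters. These are matches of letters, and nothing on the arrays measured binding there.

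CXCL2 and CXCL3 are close in sequence in their transcripts too, which bears on their probes. The second CXCL2 probe, A_24_P257416, lists transcripts of both genes in the array design, and 32 of its bases align with the brightest CXCL3 probe with differences G18C and A28C, counted from 1 at the 5′ end of the stretch with the base of the CXCL2 probe first. The stretches are printed with the differing bases in capitals.
CXCL2 probe A_24_P257416, bases 29 to 60: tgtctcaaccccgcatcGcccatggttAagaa
CXCL3 probe A_24_P251764, bases 1 to 32: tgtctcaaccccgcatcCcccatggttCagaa
Values of this CXCL2 probe and of A_24_P251764 may therefore mix both transcripts. The array design places the IL6 probe A_23_P71037 at chr7:22544447-22544506 of build hg17 and the brightest CXCL2 probe A_23_P315364 at chr4:75328020-75328079 of hg17. IL6, IL1A, IL1B and CCL2 have 10 spots each and the other probes 1.

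Values below are log2 ratios of Cy5 to Cy3 after background correction and loess, a curve fitted to each scan that removes the trend of the ratio with brightness. A gene counts as called when its brightest probe has a Benjamini-Hochberg adjusted p under 0.05 in limma over all 30260 tested probes, and as a 2-fold call when its log2 change is also at least 1. The trend that loess removes was large: before it, the dimmest 10% of probes had median ratios of -0.63 to -0.25 and the brightest 10% of 0.55 to 1.19. With median centring in place of loess the median of all tested probes moved to 0.24 and 0.21 for PT alone at the low and the high dose and to 0.36 and 0.21 for the combination. The share of calls that were higher moved from 56.1% to 69.0% and from 54.0% to 69.9% for PT alone, and from 55.9% to 67.9% and from 54.3% to 70.1% for the combination. Counts under median centring below are to be read beside this shift over all tested probes. Directions of named genes that turn under median centring are given with that value. Where the background model was instead fitted with outlier spots included, a setting added after the data were seen, only 1, 2, 2 and 1 of the 10 genes were called for PT alone at both doses and the combination at both doses, in that order.

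After PT alone IL6, IL1A and IL1B were lower and LIF and CCL2 higher than in untreated cells, although IL1B turned at both doses and IL1A at 10 Gy with median centring. Of the 10 genes, 3 were called higher and 3 lower in U87 2 Gy, and likewise 3 and 3 in U87 10 Gy. Over all tested probes 32.2% were called higher and 25.2% lower at 2 Gy, and 31.5% and 26.8% at 10 Gy, so these counts lie near the background. With median centring the counts were 7 higher and 0 lower at 2 Gy and 7 and 1 at 10 Gy. No gene reached 2-fold at either dose, where 0.691% and 0.919% of probes did, although LIF was at 1.01 on the log2 scale at both doses with median centring. The median of the 10 changes was -0.0071 at 2 Gy and -0.04 at 10 Gy, beside 0.02 and 0.01 over all tested probes.

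IL6, a cytokine that signals to STAT3, had log2 ratios of -0.74 and -0.68 on the U87 2 Gy arrays and -0.62 and -0.63 on the U87 10 Gy arrays. All 4 arrays were below 0 and close to each other. The fitted change was -0.71 ± 0.032 (SE, n = 2; 1.63-fold lower; adjusted p = 2.26e-08) at 2 Gy and -0.62 ± 0.032 (1.54-fold lower; adjusted p = 4.3e-08) at 10 Gy. The 10 spots of the probe ranged from -0.94 to -0.51 on the first 2 Gy array, the widest of the 8 arrays, with an SD of 0.14. With median centring the changes were -0.07 (adjusted p = 0.240) and -0.10 (adjusted p = 0.117), which no longer passed, or -0.32 and -0.31 below the median of all tested probes under that setting. IL6 was lower under every alternative run at both doses.

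IL1A and IL1B encode the interleukin-1 cytokines. IL1A ratios were -0.32 and -0.27 at 2 Gy and -0.24 and -0.21 at 10 Gy, a change of -0.29 ± 0.034 (adjusted p = 2.46e-05) and -0.23 ± 0.034 (adjusted p = 1.56e-04). The lower value of IL1A at 10 Gy turned to 0.04 with median centring, and at 2 Gy it was -0.03. IL1B ratios were -0.22 and -0.17 at 2 Gy and -0.19 and -0.20 at 10 Gy. IL1B fell by 0.19 ± 0.043 (adjusted p = 0.00256) and by 0.20 ± 0.043 (adjusted p = 0.00211), and turned to 0.39 and 0.29 with median centring. With no offset in the background correction neither IL1B change passed (adjusted p = 0.0679 and 0.0670).

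LIF, a cytokine of the IL6 family, went up at both doses. Its ratios were 0.52 and 0.49 in U87 2 Gy and 0.61 and 0.54 in U87 10 Gy, above 0 on all 4 arrays. The change was 0.51 ± 0.035 (1.42-fold; adjusted p = 9.58e-07) at 2 Gy and 0.57 ± 0.035 (1.49-fold; adjusted p = 3.33e-07) at 10 Gy, and with median centring 1.01 and 1.01. With outlier spots in the background fit neither LIF change was called (adjusted p = 0.377 and 0.120).

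CCL2, the monocyte chemokine, had ratios of 0.43 and 0.43 in U87 2 Gy, then 0.27 and 0.24 at 10 Gy. It rose by 0.43 ± 0.032 (1.35-fold, adjusted p = 7.83e-07) and 0.26 ± 0.032 (1.19-fold, adjusted p = 3.76e-05). CCL2 was above 0 under every alternative run, at 0.73 and 0.52 with median centring. With outlier spots in the background fit it was not called (adjusted p = 0.651 and 0.135). The arrays of the 2 doses did not overlap. CSF2, the granulocyte-macrophage colony-stimulating factor, was dim, with ratios of -0.01 and -0.07 at 10 Gy and a value on only 1 array at 2 Gy. Neither change was called (adjusted p = 0.456 at 10 Gy). With median centring CSF2 was at -0.17 at 10 Gy and called lower (adjusted p = 0.00586).

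The CXC chemokines bind CXCR2 on neutrophils, and after PT alone most of their changes did not pass with loess, whereas with median centring all of them were above 0. IL8 ratios were 0.08 and -0.0014 at 2 Gy and -0.0050 and -0.09 at 10 Gy, and neither change, 0.04 and -0.05, passed (adjusted p = 0.499 and 0.375), while with median centring they were 0.41 and 0.30 and both passed (adjusted p = 3.28e-07 and 4.66e-05). CXCL1 ratios were 0.14 and 0.35 at 2 Gy and -0.02 and -0.05 at 10 Gy. CXCL1 rose by 0.25 ± 0.045 at 2 Gy (1.19-fold, adjusted p = 6.93e-04), with a wide gap between the arrays, and by 0.57 with median centring. Its change of -0.04 at 10 Gy did not pass (adjusted p = 0.503) and turned to 0.22 with median centring.

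CXCL2 did the reverse at its brightest probe, with ratios of -0.03 and 0.0026 in U87 2 Gy, but 0.26 and 0.22 at 10 Gy. CXCL2 rose by 0.24 ± 0.037 at 10 Gy (1.18-fold, adjusted p = 1.99e-04), and by 0.79 with median centring. Its change of -0.01 at 2 Gy did not pass (adjusted p = 0.791) and was 0.65 with median centring. Its second probe was at -0.04 at both doses and not called (adjusted p = 0.383 and 0.297, turned to 0.54 and 0.43 with median centring), so the probes of CXCL2 disagreed at 10 Gy. CXCL3 was not called at its brightest probe at either dose (-0.08, adjusted p = 0.097, and -0.03, adjusted p = 0.596, turned to 0.46 and 0.45 with median centring), while its second probe, with ratios of -0.22 and -0.18 at 10 Gy, fell by 0.20 ± 0.037 there (adjusted p = 6.42e-04; turned to 0.20 with median centring).

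**Figure D2:**
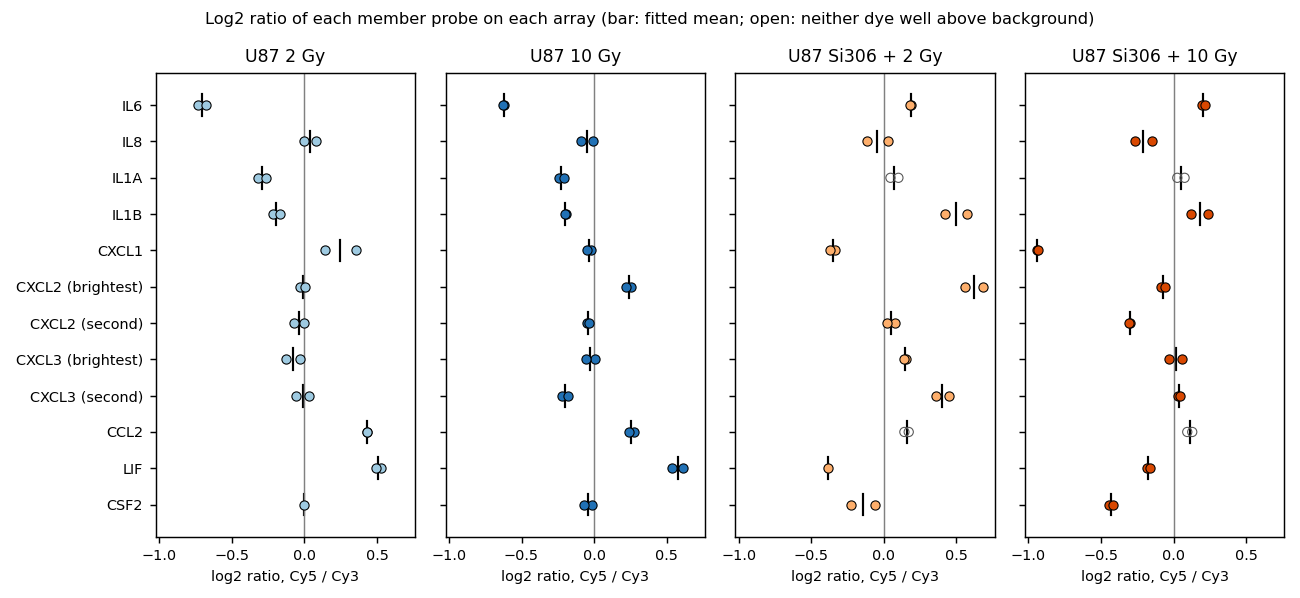
Log2 ratio of Cy5 to Cy3 (horizontal axis) of each tested probe of the 10 genes in the 4 configurations, with a point for each array, a bar at the fitted mean and open points where neither dye was well above background. IL6 lies between -0.74 and -0.62 on the 4 PT alone arrays and between 0.18 and 0.22 on the 4 Si306 arrays; with median centring its PT alone changes were -0.07 and -0.10.

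Adding Si306 to PT gave 5 genes called higher and 3 lower in U87 Si306 + 2 Gy, with LIF among the latter on 1 array only, and 3 higher and 4 lower in U87 Si306 + 10 Gy, relative to PT alone. The background was 36.3% higher and 28.6% lower at 2 Gy and 33.1% and 27.9% at 10 Gy. With median centring the counts were 7 and 2, and 3 and 5. No gene passed the 2-fold call, which 0.654% and 0.344% of probes did, although CXCL2 in U87 Si306 + 2 Gy was at 1.26 with median centring. The median over the 10 genes was 0.11 at 2 Gy and -0.03 at 10 Gy, beside 0.03 and 0.02 over all tested probes. IL1A and CCL2 were not well above background in either dye on slide 2, so their ratios there have no direction and no fold, although CCL2 is counted among the calls (adjusted p = 0.00126 and 0.0106).

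CXCL1 had the largest change of the 10 genes in U87 Si306 + 10 Gy with loess, though not with median centring, where IL6 was at 0.46 and CXCL1 at -0.32. Its ratios were -0.33 and -0.37 in U87 Si306 + 2 Gy and -0.94 and -0.93 in U87 Si306 + 10 Gy, and the arrays of the doses lay far apart. At 10 Gy CXCL1 fell by 0.94 ± 0.045 on the log2 scale (1.92-fold lower; adjusted p = 4.32e-08), and it was lower under every alternative run, with -0.32 under median centring. At 2 Gy it fell by 0.35 ± 0.045 (1.28-fold lower; adjusted p = 4.12e-05), but turned to 0.61 with median centring.

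CXCL2 moved the other way at the low dose. Its brightest probe had ratios of 0.68 and 0.56 in U87 Si306 + 2 Gy and -0.09 and -0.06 in U87 Si306 + 10 Gy. CXCL2 rose by 0.62 ± 0.037 at 2 Gy (1.54-fold; adjusted p = 1.3e-07), higher under every alternative run but at 1.26 with median centring, and its change of -0.07 at 10 Gy did not pass (adjusted p = 0.111; 0.30 with median centring). The second probe gave 0.05 at 2 Gy (adjusted p = 0.224) and fell by 0.30 ± 0.033 at 10 Gy (adjusted p = 1.59e-05), so the size depended on the probe.

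CXCL3 was called higher in U87 Si306 + 2 Gy. Its brightest probe had ratios of 0.15 and 0.14 there and 0.06 and -0.03 in U87 Si306 + 10 Gy. The change was 0.14 ± 0.038 at 2 Gy (adjusted p = 0.00635; 0.067 without the first array) and 0.01 at 10 Gy (adjusted p = 0.780). The second probe had ratios of 0.45 and 0.36 at 2 Gy (adjusted p = 3.08e-06). As the PT alone RNA was not well above background there, its level in Cy5 was with loess at least 1.32-fold higher. The log2 change was 0.24 with median centring and 0.06 at its lowest under the alternatives, so this bound depends on the processing.

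IL8 had ratios of 0.03 and -0.12 at 2 Gy, on either side of 0, and -0.15 and -0.27 at 10 Gy. It fell by 0.21 ± 0.045 at 10 Gy (1.16-fold lower; adjusted p = 0.00202), and did not pass without the second array (adjusted p = 0.0726). At 2 Gy the change was -0.04 (adjusted p = 0.411).

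IL6 and IL1B were higher with Si306 than with PT alone. IL6 ratios were 0.19 and 0.18 at 2 Gy and 0.19 and 0.22 at 10 Gy, a rise of 0.18 ± 0.032 (1.14-fold; adjusted p = 4.33e-04) and 0.20 ± 0.032 (1.15-fold; adjusted p = 2.22e-04). The 4 arrays lay close together. IL6 was above 0 under every alternative run, at 0.55 and 0.46 with median centring, but not called with outlier spots in the background fit (adjusted p = 0.595 and 1.00). IL1B ratios were 0.57 and 0.42 at 2 Gy and 0.12 and 0.24 at 10 Gy, and it rose by 0.50 ± 0.043 (1.41-fold; adjusted p = 1.97e-06) and 0.18 ± 0.043 (1.13-fold; adjusted p = 0.00373). At 10 Gy the IL1B control RNA was well above background on only 1 array, and the change did not pass without the second array (adjusted p = 0.119), with median centring (0.12, adjusted p = 0.0671) or with outlier spots in the background fit (0.0097, adjusted p = 1.00). At 2 Gy the IL1B change ran from 0.08 to 1.21 under the alternatives, with the call kept in 23 of 24. The rises of both genes were from the low levels of slide 2, where IL6 was at 7.80 and IL1B at 6.84 in the control RNA at 2 Gy.

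LIF and CSF2 were lower with Si306, but with median centring LIF was higher at both doses and CSF2 at 2 Gy. LIF had a value of -0.38 on the 1 array that measured it in U87 Si306 + 2 Gy, as the spot of the other array was left out as an outlier, and -0.18 and -0.17 in U87 Si306 + 10 Gy. The fit takes the spread of a lone array from the other arrays, so its adjusted p of 6.91e-05 for LIF at 2 Gy has no replicate behind it. LIF fell by 0.17 ± 0.035 at 10 Gy (adjusted p = 0.0016), and the values turned to 0.39 and 0.33 with median centring. CSF2 ratios were -0.23 and -0.06 at 2 Gy and -0.44 and -0.42 at 10 Gy. CSF2 fell by 0.43 ± 0.043 at 10 Gy (1.35-fold lower; adjusted p = 1.21e-05), and by 0.15 ± 0.043 at 2 Gy (adjusted p = 0.0121), where it did not pass without the first array (adjusted p = 0.313) and turned to 0.21 with median centring. At 10 Gy CSF2 stayed below 0 under every alternative run, but was at -0.14 with median centring (adjusted p = 0.0245) and at -0.06 and not called with outlier spots in the background fit (adjusted p = 0.158).

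The difference between the doses was tested as a contrast within each slide, in which a dye effect of a probe that is equal on all arrays cancels. For PT alone 1 gene was called higher at 10 Gy than at 2 Gy and 2 lower, against 9.29% and 10.6% of all tested probes. With median centring the share of all calls that were higher moved from 46.6% to 30.5%. CXCL2 was 0.25 ± 0.052 higher at 10 Gy (95% interval 0.14 to 0.37; adjusted p = 0.00704), while the difference was -0.28 ± 0.064 for CXCL1 (adjusted p = 0.0101) and -0.17 ± 0.045 for CCL2 (adjusted p = 0.0199). With median centring CXCL1 still passed (-0.36, adjusted p = 0.00509), but CXCL2 (0.14, adjusted p = 0.288) and CCL2 (-0.21, adjusted p = 0.0712) did not. The second CXCL2 probe had a difference of -0.0067 (adjusted p = 0.943), and the mean of the CXCL2 probes was 0.12 (adjusted p = 0.0925). CXCL1 did not pass without either 10 Gy array or the second 2 Gy array (adjusted p = 0.0503 to 0.0804), CXCL2 without the first 10 Gy array (0.0571), and CCL2 when any of the 4 arrays was left out (0.0571 to 0.107). IL6 did not pass (0.08, interval -0.02 to 0.18; adjusted p = 0.241), so a difference of up to 0.18 lies within its interval.

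For the Si306 ratio 1 gene was called higher and 4 lower at 10 Gy than at 2 Gy, against 9.37% and 11.9% of probes. With median centring the share of all calls that were higher moved from 44.2% to 32.0%. The difference was -0.69 ± 0.052 for CXCL2 (interval -0.81 to -0.58; adjusted p = 1.28e-05) and -0.59 ± 0.064 for CXCL1 (interval -0.73 to -0.44; adjusted p = 1.67e-04), both lower under every alternative run. The second CXCL2 probe had a difference of -0.35 ± 0.047 (adjusted p = 6.76e-04). For IL1B it was -0.32 ± 0.061 (adjusted p = 0.0048) and for CSF2 -0.28 ± 0.060 (adjusted p = 0.0093). IL1B did not pass with no offset (adjusted p = 0.0577) or with outlier spots in the background fit (-0.07, adjusted p = 0.963). CSF2 did not pass without the first Si306 10 Gy array (0.0550), without the second Si306 2 Gy array (0.0610), with no offset (0.0663), with the scanner's or the series matrix ratio (0.0790 and 0.0782), with 1 scan per array (0.0552) or with outlier spots in the background fit (-0.014, adjusted p = 1.00).

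LIF was 0.21 ± 0.060 higher (adjusted p = 0.0343) but turned to -0.06 with median centring rests on 1 array at 2 Gy, and did not pass without either 10 Gy array (adjusted p = 0.0989 and 0.127). For the chemokine IL8 the interval was -0.31 to -0.02 (-0.17, adjusted p = 0.092) and of IL6 -0.08 to 0.12 (0.02, adjusted p = 0.783). CXCL1 and CXCL2 thus differed by dose in the same direction while their changes at 2 Gy had opposite signs, -0.35 and 0.62, although the first turned to 0.61 with median centring.

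**Figure D3:**
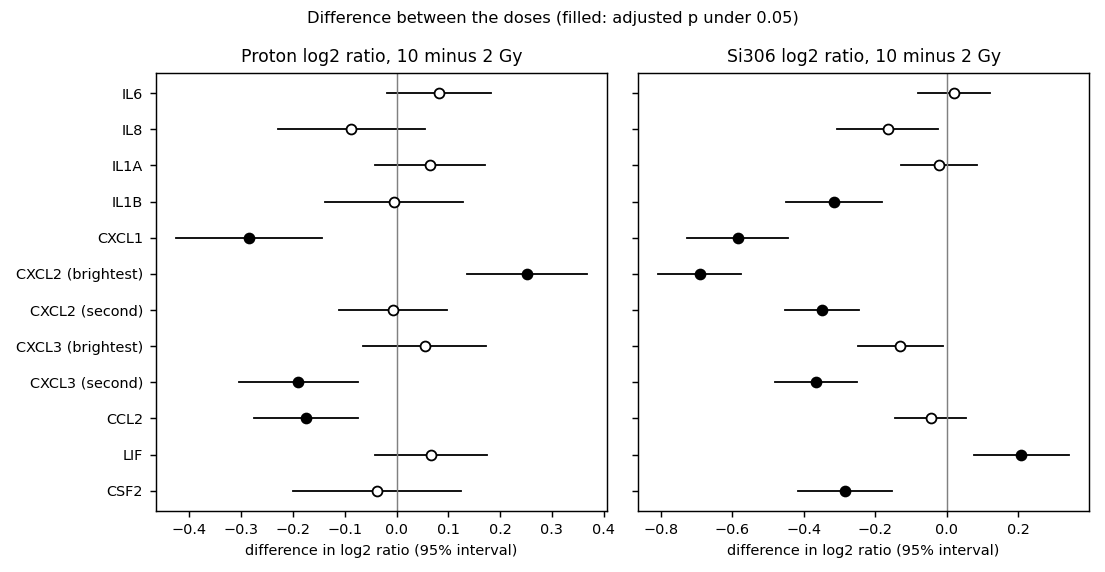
Difference of the log2 ratio between 10 and 2 Gy (horizontal axis) with its 95% interval for each tested probe, for PT alone on the left and for Si306 added to PT on the right; filled points have an adjusted p under 0.05. CXCL2 and CXCL1 lie lowest on the right, at -0.69 and -0.59, and LIF at 0.21 turned to -0.06 with median centring.

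The proton and Si306 ratios at a dose can be summed to a net value of the combination against untreated cells. Such a sum joins the 2 slides through PT alone RNA that differed between them as given above, and it adds up any dye bias, so it is a sum of ratios and not a measured comparison. At 2 Gy 3 genes were called higher and 2 lower, against 39.7% and 27% of probes, and at 10 Gy 3 higher and 5 lower, against 37.5% and 28.1%. Under median centring the counts were 7 and 1 at 2 Gy, and 6 and 2 at 10 Gy. The share of all calls that were higher was 59.5% and 57.2%, with median centring 69.5% and 72.1%, and 49.3% at 2 Gy after a curve on the GC content of the probes was removed. IL6 summed to -0.52 ± 0.046 at 2 Gy and -0.42 ± 0.046 at 10 Gy (adjusted p = 2.42e-06 and 1.18e-05), values that turned to 0.48 and 0.36 with median centring. CXCL1 summed to -0.98 ± 0.064 at 10 Gy (adjusted p = 2.75e-07), LIF to 0.40 ± 0.049 at 10 Gy (adjusted p = 4.88e-05) and CXCL2 to 0.61 ± 0.052 at 2 Gy (adjusted p = 2.28e-06), which with median centring were -0.10 for CXCL1, no longer past the threshold (adjusted p = 0.256), 1.34 for LIF and 1.91 for CXCL2. The counts include CCL2 and IL1A, whose Si306 ratios have no direction.

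Regulators of these genes were described from lists, whose counts are to be read against the shares of all tested probes called higher and lower: 32.2% and 25.2% in U87 2 Gy, 31.5% and 26.8% in U87 10 Gy, and with Si306 36.3% and 28.6% at 2 Gy, then 33.1% and 27.9% at 10 Gy. Of 14 tested transcription factors of these promoters, 7 were called higher and 4 lower in U87 2 Gy, 6 and 4 at 10 Gy, and 7 and 4, and 7 and 1, with Si306, while with median centring the counts were 12 and 2, 12 and 2, 11 and 2, and 10 and 2. The lower counts with loess lie near those shares or below them. FOS, an AP-1 subunit, fell by 0.86 ± 0.036 in U87 2 Gy (adjusted p = 1.2e-08) and by 1.58 ± 0.036 in U87 10 Gy (adjusted p = 6.3e-11), and rose by 2.09 ± 0.036 in U87 Si306 + 2 Gy (adjusted p = 2.31e-11) but only 0.14 ± 0.036 in U87 Si306 + 10 Gy (adjusted p = 0.00502). The sign of FOS held under all 24 alternatives in each configuration. JUN, another AP-1 subunit, went the other way in U87 10 Gy, where it rose by 0.64 ± 0.032 (adjusted p = 3.23e-08).

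ATF3, a stress-induced factor, rose by 1.88 ± 0.036 in U87 Si306 + 2 Gy (adjusted p = 5.47e-11) and 0.70 ± 0.036 in U87 Si306 + 10 Gy (adjusted p = 6.97e-08). The difference of the Si306 ratio between 10 and 2 Gy was -1.94 ± 0.051 for FOS (adjusted p = 4.1e-09) and -1.19 ± 0.051 for ATF3 (adjusted p = 1.92e-07). Of the 14 tested factors 3 were called higher and 2 lower in this difference, beside 9.37% and 11.9% of all tested probes. Among the cytokine genes CXCL2, CXCL1, IL1B and CSF2 were called lower and LIF higher. A link of these genes to FOS or ATF3 was not tested. CEBPD, a C/EBP factor, rose by 0.84 ± 0.033 and 0.99 ± 0.033 in the Si306 configurations (adjusted p = 7.44e-09 and 4.49e-09), also under every alternative. RELB, an NF-kB subunit, rose by 0.60 ± 0.033 in U87 2 Gy (adjusted p = 9.18e-08).

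Among 11 feedback and mRNA decay regulators, 6 were called higher and 2 lower in U87 2 Gy and 3 and 5 in U87 10 Gy, and the difference between these doses was called lower in 7 and higher in 0, while with median centring the counts were 11 and 0, 9 and 0, and 7 lower and 0 higher. Of all tested probes 32.2% and 25.2% were called higher and lower at 2 Gy, 31.5% and 26.8% at 10 Gy, and 10.6% were called lower in the dose difference. NFKBIA, the NF-kB inhibitor that NF-kB itself induces, rose by 0.91 ± 0.034 and 0.39 ± 0.034 at the low and the high dose (adjusted p = 1.73e-08 and 4.33e-06). ZC3H12A, a nuclease that degrades IL6 mRNA, rose by 0.65 ± 0.039 at 2 Gy (adjusted p = 1.58e-07). TNFAIP3, another NF-kB inhibitor, was at 0.11 and -0.18 (adjusted p = 0.0497 and 0.00298, the latter 0.07 with median centring), and ZFP36, which destabilizes cytokine mRNA, at 0.08 and -0.20 (adjusted p = 0.226 and 0.00148, the latter 0.26 with median centring).

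In the Si306 configurations 4 of the 11 were called higher and 3 lower at 2 Gy, and 3 and 3 at 10 Gy. Over all tested probes 36.3% and 28.6% were called so at 2 Gy, and 33.1% and 27.9% at 10 Gy. These counts therefore lie near the background. With median centring all 11 were higher at both doses, where the median of all tested probes moved to 0.36 and 0.21. DUSP1, a phosphatase that shuts off MAP kinases, rose by 1.41 ± 0.034 in U87 Si306 + 2 Gy (adjusted p = 2.31e-10) and 0.57 ± 0.034 in U87 Si306 + 10 Gy (adjusted p = 1.59e-07). CEBPB, which binds the IL6 promoter, was at -0.15 in U87 Si306 + 2 Gy (adjusted p = 0.00221), which turned to 0.98 with median centring.

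Receptors for these ligands moved by less than 2-fold in each configuration. Of 9 tested of 13 listed, 2 were called higher and 2 lower in U87 2 Gy, 2 and 3 at 10 Gy, and 5 and 0, and 6 and 2, with Si306, while with median centring the counts were 5 and 2, 3 and 2, 4 and 4, and 3 and 3. The PT alone counts lie near or below the shares of all tested probes, 32.2% and 25.2% at 2 Gy and 31.5% and 26.8% at 10 Gy. With Si306 36.3% and 28.6% of all tested probes were called higher and lower at 2 Gy, and 33.1% and 27.9% at 10 Gy. LIFR, the LIF receptor, rose by 0.57 ± 0.033 and 0.55 ± 0.033 with Si306 (adjusted p = 9.97e-08 and 1.68e-07). IL1RAP, the accessory chain of the IL-1 receptor, rose by 0.73 ± 0.047 and 0.25 ± 0.047 with Si306 (adjusted p = 2.18e-07 and 7.35e-04) and was at -0.48 and -0.35 after PT alone (adjusted p = 6.92e-06 and 6.88e-05; 0.01 and 0.08 with median centring). IL6ST was at -0.14 and -0.20 after PT alone (adjusted p = 0.00517 and 3.83e-04; 0.19 and 0.08 with median centring).

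**Figure D4:**
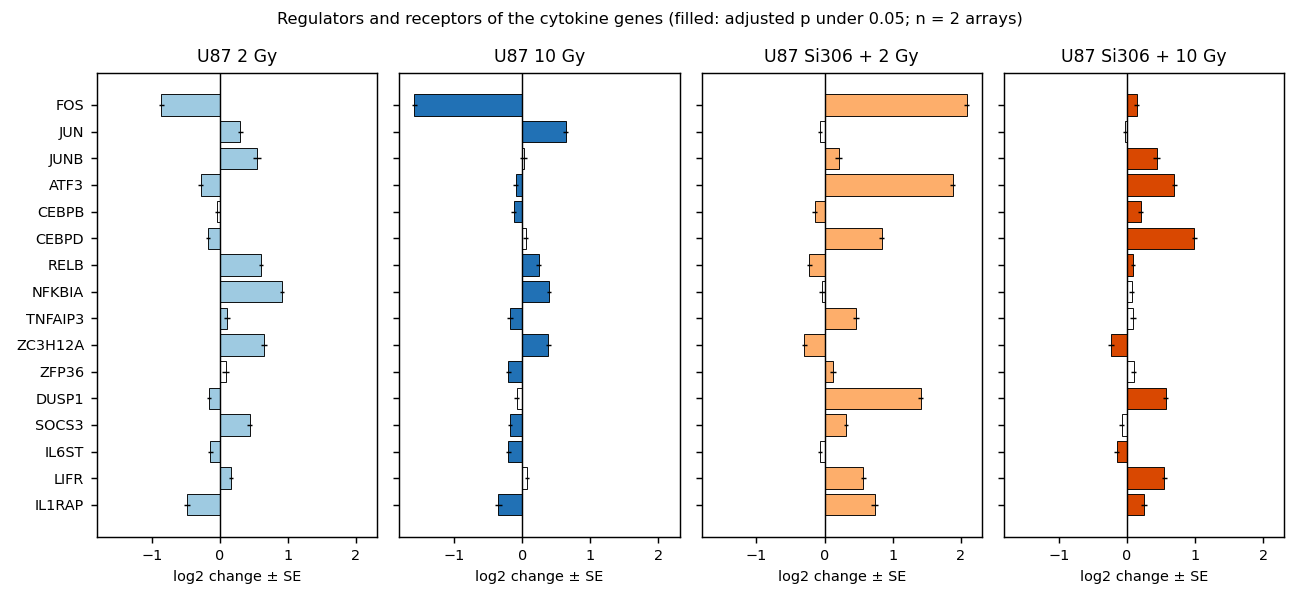
Log2 change (horizontal axis, bar, with SE) of 16 regulators and receptors of the cytokine genes in the 4 configurations; filled bars have an adjusted p under 0.05. FOS runs from -1.58 in U87 10 Gy to 2.09 in U87 Si306 + 2 Gy, with its sign kept under every alternative, while the bars of CEBPB and IL6ST below 0 turned with median centring.

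Of 22 tested other cytokines and chemokines, 13 were called higher and 0 lower in U87 2 Gy, and 8 and 1 in U87 10 Gy, with median centring 12 and 8, and 11 and 5. The shares over all tested probes were 32.2% and 25.2%, and 31.5% and 26.8%, so the higher count at 10 Gy lies near the background. In the Si306 configurations the counts were 8 and 5, and 9 and 2, with median centring 9 and 9, and 10 and 6, beside shares over all tested probes of 36.3% and 28.6%, and 33.1% and 27.9%. CCL26, an eosinophil chemokine, was the one past 2-fold, with rises of 1.60 ± 0.036 (adjusted p = 1.59e-10) and 1.03 ± 0.036 (adjusted p = 6.68e-09) with Si306. IL11, an IL6-family cytokine, rose by 0.98 ± 0.045 in U87 Si306 + 10 Gy (adjusted p = 3.36e-08). MIF, a macrophage cytokine, rose by 0.58 ± 0.034 and 0.55 ± 0.034 after PT alone (adjusted p = 1.56e-07 and 1.84e-07).

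The proteases, inhibitors and growth factors of the secretory phenotype were called higher and lower after PT alone in 18 and 5 of 30 at 2 Gy and in 18 and 3 at 10 Gy, where 32.2% and 25.2%, and 31.5% and 26.8%, of all tested probes were. Median centring gave 23 and 3, and 24 and 2. With Si306 they were at 12 against 9, and 10 against 9, with median centring 19 against 7, and 17 against 6. With loess the higher counts lie near the 36.3% and 33.1% of all tested probes called higher there, and 28.6% and 27.9% were called lower. GDF15, a stress-induced growth factor, rose by 0.31 ± 0.037 in U87 2 Gy and 1.27 ± 0.037 in U87 10 Gy (adjusted p = 3.24e-05 and 5.54e-10). PLAUR, the urokinase receptor, fell by 0.87 ± 0.042 in U87 Si306 + 10 Gy (adjusted p = 4.16e-08) and by 0.77 ± 0.042 in U87 Si306 + 2 Gy (adjusted p = 6.12e-08), though the latter turned to 0.09 with median centring. GDF15 rose by 0.77 ± 0.037 in U87 Si306 + 2 Gy (adjusted p = 2.86e-08) and IGFBP6, a binding protein of insulin-like growth factors, by 0.77 ± 0.044 in U87 Si306 + 10 Gy (adjusted p = 2.8e-07), both higher under every alternative run.

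The arrest and senescence list mixes the cell cycle inhibitors CDKN1A and CDKN2B with genes of dividing cells, LMNB1, HMGB2, MKI67, CCNA2 and CCNB1. Its higher and lower calls are therefore not to be pooled as a direction of arrest. Of these 7 genes, 1 was called higher and 6 lower at each dose of PT alone. Over all tested probes 32.2% and 25.2% were called so at 2 Gy, and 31.5% and 26.8% at 10 Gy. With median centring the counts were 2 and 3 at 2 Gy, and 2 and 5 at 10 Gy. CDKN1A, the p21 cell cycle inhibitor, rose by 0.38 ± 0.031 and 1.19 ± 0.031 (adjusted p = 1.52e-06 and 2.32e-10), a difference between doses of 0.81 ± 0.044 (adjusted p = 3.76e-06). CCNA2, cyclin A2, fell by 0.46 ± 0.032 and 0.79 ± 0.032 (adjusted p = 4.93e-07 and 6.16e-09). With Si306 the counts were 2 higher and 4 lower at 2 Gy, and 2 and 5 at 10 Gy, with median centring 5 and 1, and 4 and 1, beside 36.3% and 28.6%, and 33.1% and 27.9%, of all tested probes.

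The genes whose log2 ratios lay nearest to those of IL6 over the 8 arrays, out of 13073 candidates, were ITSN2, RNF41 and UBE2R2, with root mean square differences of 0.07, 0.08 and 0.08. For IL8 they were LOH3CR2A, HOXA11S and CAV3, at 0.04, 0.04 and 0.05. No p-value goes with these distances.

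**Figure D5:**
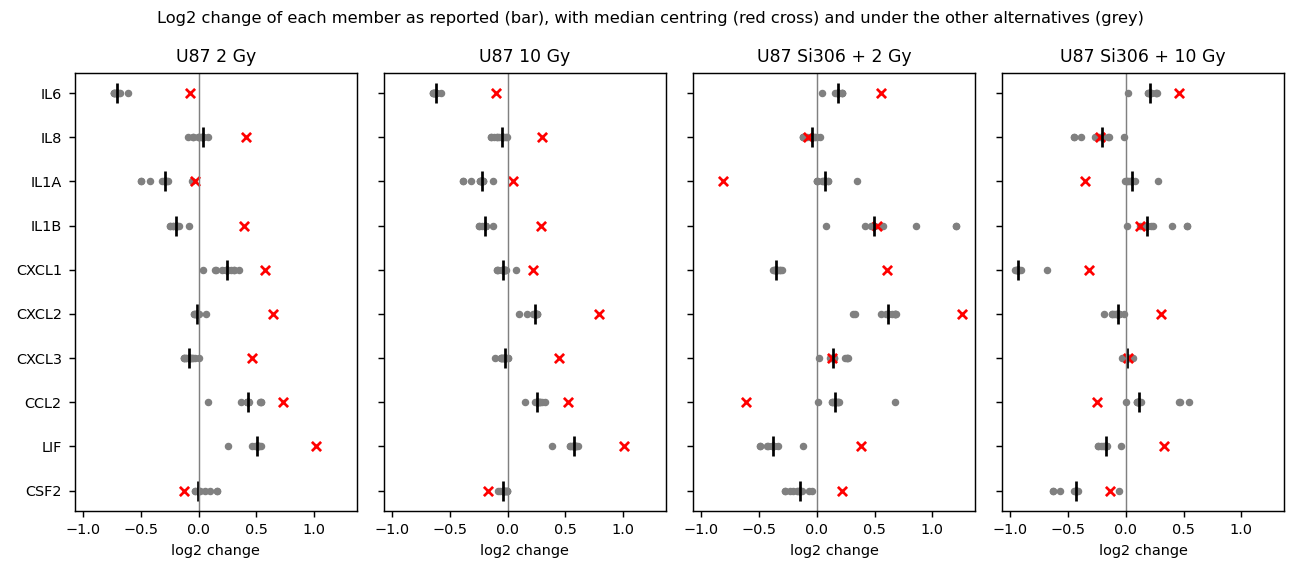
Log2 change of the brightest probe of each gene (horizontal axis) in the 4 configurations as reported (bar), with median centring (red cross) and under each other alternative (grey points). The red crosses lie right of the bars for IL6, at -0.07 and -0.10 against -0.71 and -0.62 after PT alone, and across 0 for LIF and CXCL1 in U87 Si306 + 2 Gy, at 0.39 and 0.61.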

How the data were processed

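RNA of U87 MG cells was hybridized to Agilent 4x44K arrays with 60-base probes, and the authors deposited the scanner output (Agilent Feature Extraction 9.5.3.1, array design on build hg17): a mean and a local background intensity of each spot in both dyes, and a log10 ratio of Cy5 to Cy3 that the software had background-subtracted and dye-normalized. The deposited series matrix holds the same log10 ratios rounded, with a largest difference of 0.005. Group comparisons of the authors were made in GeneSpring GX and are not used here.

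Spots that the software marked as outliers (3.10% to 5.98% per scan) were left out. Intensities were corrected with normexp (offset 50, fitted on the other spots) and normalized by loess within each scan in limma 3.58.1 (R 4.3.3, statmod 1.5.0). Spots of a probe were averaged, then the scans of an array, leaving 8 arrays from 22 scans. Probes well above background in either dye on at least 2 of every 3 arrays of a configuration were kept, which a configuration of 2 arrays meets only with both. The linear model held a mean for each configuration (residual df 4, prior df 6.79), with moderated tests and Benjamini-Hochberg adjustment over the 30260 tested probes. Each ± is a standard error from this fit, and the number of arrays limits the precision. A total of 2133 probes lacked a value on some array, among them LIF and CSF2 on 1 array each. The code was tested on simulated data.

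The plan had assumed an array for each labelled replicate; the headers showed 3 scans per array, so arrays were used. Scans with the same replicate number did not deviate together (r of -0.07 to 0.09), so the numbers were not used as pairs. The members and gene lists were chosen with earlier results of these data known. All 10 genes are named with every probe; from each list at most 4 genes per comparison with the largest change among those called at 2-fold were named, or, where fewer than 2 were, at most the 2 with the largest change at adjusted p under 0.05, and IL6ST, NFKBIA, CEBPB, ZFP36 and TNFAIP3 in any comparison. Alternatives changed the background correction, the normalization, the outlier spots, the filter, the choice of probe, a GC curve, the source of the ratio and the use of scans and arrays. Figures were drawn with matplotlib 3.10.9 and pandas 2.3.3.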

Additional observations from a re-analysis of the deposited data

Results flagged for a closer look

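The log2 ratio of 8 probes differed between 10 and 2 Gy by a contrast of limma's fit with an adjusted p under 0.05, in 11 comparisons. After PT alone the differences were -0.28 for CXCL1, 0.25 for CXCL2, -0.17 for CCL2 and -0.19 for the second CXCL3 probe. The last kept its call in 12 of 22 alternatives, with the call lost among others without the first 2 Gy array or either 10 Gy array (adjusted p = 0.0811 to 0.137). For Si306 added to PT they were -0.69 for CXCL2, -0.35 for its second probe, -0.59 for CXCL1, -0.37 for the second CXCL3 probe, -0.32 for IL1B, -0.28 for CSF2 and 0.21 for LIF, the last of which turned to -0.06 with median centring. The value of -0.37 is no measured size, since the control RNA of that probe was not well above background on either Si306 2 Gy array and was well above it on only 1 of the 2 Si306 10 Gy arrays.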

How the results depend on the processing

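Of the values of single probes, 1958 of 2064 kept direction and side of the threshold under the alternatives other than median centring and the background model fitted with outlier spots, while 64 lost the call, 39 gained it and 3 turned: CCL2 in the Si306 dose difference, 0.28 with the scanner's ratio and 0.28 with the series matrix, and CXCL2 in the 10 Gy net sum, -0.088 with the mean of all probes. With outlier spots in the background fit 51 of 96 held, 41 lost the call, and CCL2 turned to -0.00083 in U87 Si306 + 10 Gy and 0.062 in the proton dose difference, and IL1B to -0.0018 in the 2 Gy net sum. With median centring 49 of 96 held and 33 turned. In U87 2 Gy these were IL1B 0.39, CXCL2 0.65, CXCL3 0.46 and the second probes of CXCL2 0.54 and CXCL3 0.45. In U87 10 Gy they were IL8 0.30, IL1A 0.044, IL1B 0.29, CXCL1 0.22, CXCL3 0.45 and the second probes of CXCL2 0.43 and CXCL3 0.20. In U87 Si306 + 2 Gy they were IL1A -0.81, CXCL1 0.61, CCL2 -0.61, LIF 0.39 and CSF2 0.21, and in U87 Si306 + 10 Gy IL1A -0.36, CXCL2 0.30, CCL2 -0.25 and LIF 0.33. In the Si306 dose difference they were IL1A 0.45, CCL2 0.36 and LIF -0.060. In the 2 Gy net sum they were IL6 0.48, IL8 0.33 and CXCL1 1.18, and in the 10 Gy net sum IL6 0.36, IL8 0.070, IL1B 0.41, CXCL3 0.47 and the second probes of CXCL2 0.16 and CXCL3 0.11. The cause was not tested.

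The number of the 10 genes called was 6, 6, 8 and 7 in the 4 configurations, 3 and 5 in the proton and Si306 dose differences and 5 and 8 in the 2 and 10 Gy net sums. With outlier spots in the background fit it was 1, 2, 2, 1, 0, 2, 3 and 3 in that order. With no offset the dose differences had 1 and 2, with 1 scan per array 1 and 3, and with the conflicting scans kept the proton dose difference had 0. With median centring the proton dose difference had 1 and the 2 Gy net sum 8. With every scan as a row and a replicate block these were 5 and 9, and the other counts 7, 6, 10 and 9 in the configurations, 7 in the Si306 dose difference and 8 in the 10 Gy net sum. Scans of an array are no separate samples, and the numbers are only names. Leaving out each array in turn gave 5 to 6, 5 to 6, 5 to 8, 4 to 7, 0 to 3, 3 to 5, 5 to 6 and 6 to 8: the lowest were 5 without the first Si306 2 Gy array, 4 without the second Si306 10 Gy array, 0 without the first 10 Gy array and 3 without the first Si306 10 Gy array. A lone array was assumed to vary like the others. Dim signal on slide 2 limits IL1A, CCL2, IL8 and IL1B there.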

Other observations

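The scan labelled U87 2 Gy replicate 5, which lies on a 10 Gy array, had log2 ratios of -0.65 for IL6, -0.03 for CXCL1, 0.22 for CXCL2, 0.24 for CCL2 and 0.61 for LIF. The scan labelled U87 10 Gy replicate 2, which lies on a 2 Gy array, had -0.69 for IL6, 0.30 for CXCL1, 0.01 for CXCL2, 0.45 for CCL2 and 0.53 for LIF. With both kept under their labels, CXCL1 in U87 2 Gy was at 0.15 and did not pass (adjusted p = 0.103 in limma).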
